A study of Homo sapiens with 4 samples.

Results

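The genes of fatty acid synthesis and desaturation examined here were ACACA, ACACB, FASN, SCD, ELOVL6, ACLY, SREBF1, MLXIPL, FADS1 and FADS2, 10 of the 57979 genes with values in the deposited table. They were found by symbol, and each stood on 1 line of the table. Polyadenylated RNA was sequenced in 4 libraries of cells labelled HepG2, a human liver cancer line. There were 2 wild-type libraries (WT) and 2 libraries labelled TXNDC9-KO, made from cells in which CRISPR-Cas9 had been directed against TXNDC9, a thioredoxin domain protein that binds the TCP1 chaperonin. All libraries came from cells grown in DMEM with 10% serum. The guides were delivered with the lentiCRISPRv2 vector, and the sources used here do not say whether the sequenced knockout cells were a clone or a pool. For its western blot the paper used sorted cells infected with Cas9 and guide, or with vector alone. Whether the sequenced KO and WT cells were the same is not stated.

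Cells make fatty acids from citrate. ATP citrate lyase (ACLY) splits citrate into acetyl-CoA, the acetyl-CoA carboxylases (ACACA, in the cytosol, and ACACB, at the mitochondrial surface) turn it into malonyl-CoA, and fatty acid synthase (FASN) builds palmitate from both. ELOVL6 lengthens palmitate, SCD introduces the first double bond of the common monounsaturated fatty acids, and FADS1 and FADS2 place the double bonds of the long polyunsaturated ones. In liver and fat the set is known to be switched on by SREBF1, whose product is released from the endoplasmic reticulum when sterols are low, and by MLXIPL (ChREBP), which responds to glucose.

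The values were FPKM, that is fragments mapped to a gene scaled to transcript length and to the fragments of the library, so levels of different genes can be compared per length. The depth of each library is unknown, and a legend of the paper speaks of independent experiments for its RNA-seq values, in another number than the libraries used here. How these libraries relate to those experiments is not stated, so p-values measure only the spread between these libraries, which may be technical. TXNDC9 itself was 35.1 and 37.3 FPKM in the WT libraries and 21.9 and 27.6 FPKM in the KO libraries. limma put it at a log2 fold change of −0.55 with a standard error of 0.14 (adjusted p = 0.0145), which missed the threshold, and at 0.12 after each library was rescaled to the same sum. These are mRNA values. The paper reported reduced TXNDC9 protein in its knockout cells by western blot, and protein was not measured here. Hepatocyte genes that define the HepG2 line were close to 0: of 12 markers, none had a mean above 1 FPKM, 4 were at 0 in all libraries, APOA1 among them, and the highest value of any was 0.449 FPKM, for AFP. The summed level of these markers was 0.491 and 0.733 FPKM in the WT libraries and 0.170 and 0.344 FPKM in the KO libraries. The label HepG2 is therefore used below as the submitters' name, and the cell type was not determined here. Of 7 fibroblast markers, 5 had a mean above 1 FPKM (COL1A1 was highest, at 31.5 FPKM), and COL1A2 was at 0. The sum of all 7 was 58.3 and 54.4 FPKM in WT and 41.8 and 38.2 FPKM in KO libraries, but COL1A1 changed sign after rescaling to the same sum (log2 fold change −0.49 and 0.19), and PDGFRB, of the same list, was higher in KO (1.08 and 0.735 FPKM against 3.004 and 2.62 FPKM). Markers of endothelial cells (5) and leukocytes (6) had sums of 0.810 and 1.23 FPKM and of 3.91 and 6.02 FPKM in WT, and of 4.43 and 3.46 FPKM and of 6.22 and 7.46 FPKM in KO libraries, with CDH5 at 0.751 and 1.07 FPKM in WT and 4.26 and 3.14 FPKM in KO and KDR at 0. PDGFRB and CDH5 had WT means under 1 FPKM. Among 6 adipocyte markers PPARG alone had a mean above 1 FPKM. Its values were 19.9 and 22.7 FPKM in WT and 14.7 and 16.1 FPKM in KO libraries, with a log2 fold change of −0.46 that was 0.22 after rescaling, while ADIPOQ, LEP, PLIN1, CIDEC and FABP4 were at or near 0. The part of these marker differences in the results below was not tested, and in bulk RNA fewer cells of a type and less RNA per cell cannot be told apart.

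SCD, ACLY and FADS1 rose in the TXNDC9-KO libraries, by 4.81-fold, 3.08-fold and 2.98-fold. The other members did not pass the threshold, which was an adjusted p under 0.01 and a change of at least 2-fold in limma, and 0 of the 9 tested were called lower. FASN, the synthase itself, was 1.19-fold higher as deposited, with an interval that included no change. After each library was rescaled to the same sum, its interval lay above no change. Thus 3 of the 9 members with a mean above 1 FPKM were called higher, against 14.2% of all 13246 genes tested, and none was called lower, against 15.3%. The median log2 fold change of these 9 members was 0.71, and that of all genes tested −0.09. Both KO values lay above both WT values for 8 of the 9, where 40.1% of all tested genes were so placed and 45.9% had both KO values below. The 10th member, MLXIPL, was too low to be tested. ACACB entered the test only through its KO values, since its WT mean was under 1 FPKM, so its place in these counts is no support for them. Without it, 3 of 8 members were called higher, 7 of 8 had both KO values above both WT values, and the median log2 fold change was 0.65. The members were chosen with earlier results of these data known, so these shares are a description and no test.

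**Figure D1:**
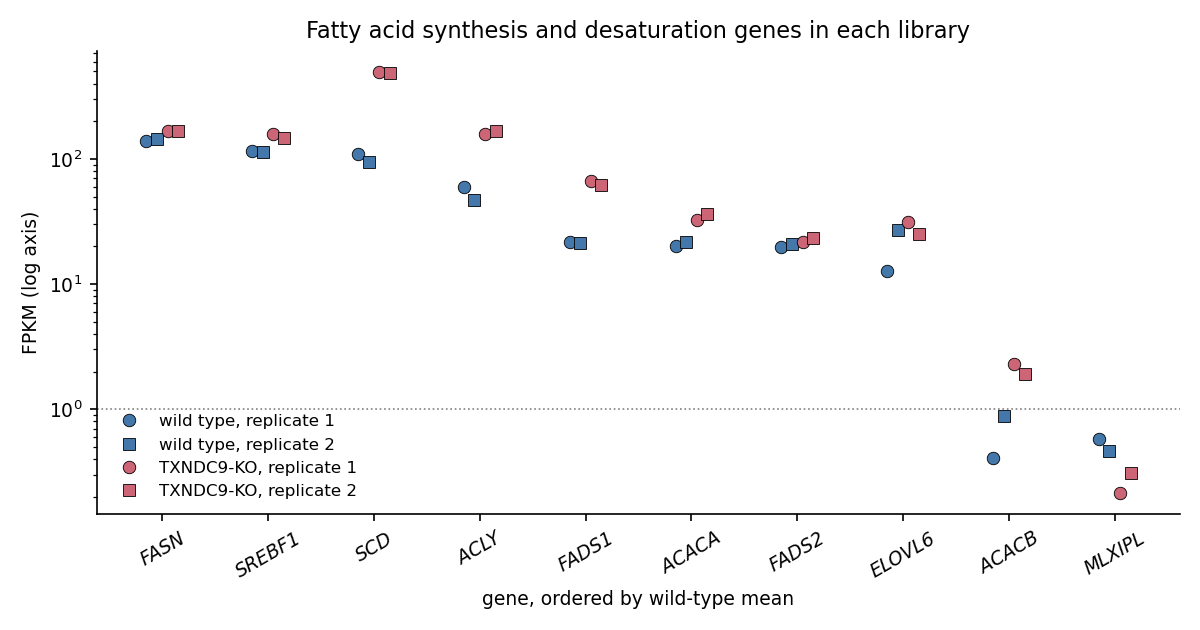
FPKM of each gene (log axis) in the 4 libraries, with genes ordered by WT mean; each point is 1 library, and the dotted line marks 1 FPKM. SCD stands at 497 and 486 FPKM in the KO libraries against 110 and 95.02 FPKM in WT, the FADS2 values lie close together, and the ELOVL6 values of the groups overlap.

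In wild-type cells the members spanned a wide range of levels. FASN was highest, SREBF1 followed, and SCD came next, with ranges that did not overlap. ACLY lay below them at 46.8 and 59.7 FPKM. FADS1, ACACA, FADS2 and ELOVL6 had WT means between 19.7 and 21.4 FPKM, and the ELOVL6 values spanned those of the others. FADS1 (21.1 and 21.7 FPKM) lay above FADS2 (19.8 and 20.8 FPKM) without overlap, while ACACA (20.3 and 21.7 FPKM) overlapped both. ACACB and MLXIPL were lowest and overlapped. In the KO libraries SCD was highest at 492 ± 7.73 FPKM (SD, n = 2), and FASN, ACLY and SREBF1 lay close together at 168 ± 0.257, 163 ± 5.53 and 153 ± 7.93 FPKM. SCD made up 21.98% and 19.3% of the summed FPKM of the 10 members in the WT libraries and 43.8% and 43.5% in the KO libraries. The share of FASN went from 27.6% and 29.3% to 14.7% and 15.04%, and that of SREBF1 from 23.3% and 23.2% to 13.9% and 13.2%. These shares do not depend on how whole libraries were scaled.

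The first step showed a clear difference. ACLY was 59.7 and 46.8 FPKM in WT and 159 and 167 FPKM in KO libraries. Both KO values were more than 2-fold above both WT values. On the log2 scale ACLY rose by 1.62 with a standard error of 0.15 (adjusted p = 0.000611, limma with Benjamini-Hochberg adjustment over all genes), and by 2.30 after rescaling to the same sum. ACLY (chromosome 17 of hg38, 41866917 to 41930542, minus strand) shares exon bases with 1 unnamed gene on the opposite strand, and the use of strand in counting is not stated.

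The carboxylase step gave smaller or less certain differences. ACACA, the main form of lipogenic cells, was 20.3 and 21.7 FPKM in WT and 32.7 and 36.1 FPKM in KO libraries. The groups did not overlap. limma gave a log2 fold change of 0.71 with a standard error of 0.11 and an adjusted p of 0.00232, so ACACA passed the p threshold but not the 2-fold limit. With p alone, 4 of the 9 tested members were higher (SCD, ACLY, FADS1 and ACACA), against 23.7% of all tested genes, and none was lower, against 27.1%. ACACB, whose product supplies the malonyl-CoA that restrains fatty acid entry into mitochondria, was 0.411 and 0.889 FPKM in WT and 2.28 and 1.91 FPKM in KO libraries. Its groups did not overlap either, and the log2 fold change of 1.62 had a standard error of 0.40 (adjusted p = 0.0142 from limma). Leaving out WT replicate 1 or WT replicate 2 brought ACACB past the threshold (adjusted p = 0.00784 and 0.00131), with log2 fold changes of 1.15 and 2.10, but a gene that enters through its higher group is selected to differ, and these p-values are given only as a description. Since ACACB is so low, its fold change moved with the pseudocount, from 0.92 with a pseudocount of 1 to 1.77 with 0.01. ACACA remained far above ACACB in each library: the ratio was 49.4 and 24.5 in WT and 14.4 and 18.9 in KO libraries.

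FASN, the multifunctional enzyme that assembles palmitate, was 138 and 144 FPKM in WT and 167 and 168 FPKM in KO libraries. The KO values were higher without overlap, but the difference was small. On the log2 scale it came to 0.25 with a 95% interval from −0.02 to 0.52 (adjusted p = 0.0845, limma), that is 0.988-fold to 1.43-fold. A 2-fold rise of FASN lay outside this interval on the deposited scale. After rescaling to the same sum, the log2 fold change of FASN was 0.93 with a 95% interval from 0.69 to 1.18, which includes a 2-fold rise. After correction for length and GC content the interval was from 0.25 to 0.61. ELOVL6, the elongase of saturated and monounsaturated fatty acids, was 12.6 and 26.8 FPKM in WT and 31.2 and 25.1 FPKM in KO libraries. The groups overlapped, because WT replicate 2 lay between the KO values. limma gave 0.60 on the log2 scale, with a 95% interval from −0.26 to 1.46 and an adjusted p of 0.172. WT replicate 1 decided this value: the log2 fold change was 0.06 without it and 1.14 without WT replicate 2, where ELOVL6 was called (adjusted p = 0.00155).

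The 3 desaturases did not move alike. SCD, the delta-9 desaturase, was 110 and 95.02 FPKM in WT and 497 and 486 FPKM in KO libraries. These groups lay far apart, and replicates were close. SCD rose by 2.27 on the log2 scale with a standard error of 0.13 (adjusted p = 0.000487, limma), more than 97.9% of tested genes, and lies on chromosome 10 of hg38 (100347233 to 100364826, plus strand), where no other gene shares its exon bases. FADS1, the delta-5 desaturase, was 21.7 and 21.1 FPKM in WT and 66.1 and 61.9 FPKM in KO libraries, again with no overlap. On the log2 scale FADS1 rose by 1.57 with a standard error of 0.10 (adjusted p = 0.000501, limma). FADS2, the delta-6 desaturase of the same pathway, was 19.8 and 20.8 FPKM in WT and 21.8 and 23.2 FPKM in KO libraries. The KO values were higher by little more than the spread, and limma gave 0.15 on the log2 scale with a 95% interval from −0.10 to 0.39 (adjusted p = 0.239). After rescaling to the same sum, FADS2 was at 0.82 with a 95% interval from 0.52 to 1.13. FADS1 (chromosome 11 of hg38, 61799627 to 61829318, minus strand) and FADS2 (61792980 to 61867354, plus strand) share exon bases on opposite strands in GENCODE. FADS2 also shares exon bases with FEN1 on its own strand. Without known strand, reads of the shared bases cannot be told apart, so the values of FADS1 and FADS2 are uncertain to that extent.

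Of the regulators, SREBF1 was 117 and 114 FPKM in WT and 158 and 147 FPKM in KO libraries. The KO values lay above the WT values without overlap. limma gave 0.41 on the log2 scale, with a 95% interval from 0.13 to 0.68 and an adjusted p of 0.0191, short of both limits. SREBF1 shares exon bases with RAI1 on the opposite strand, and its 2 main protein forms, SREBP-1a and SREBP-1c, cannot be separated in values per gene. MLXIPL was 0.573 and 0.461 FPKM in WT and 0.213 and 0.309 FPKM in KO libraries, so this regulator was hardly detected in either group. The KO values were the lower ones. When the 26435 genes with a mean above 0 were tested, its log2 fold change was −0.78 and the adjusted p 0.192 (limma).

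**Figure D2:**
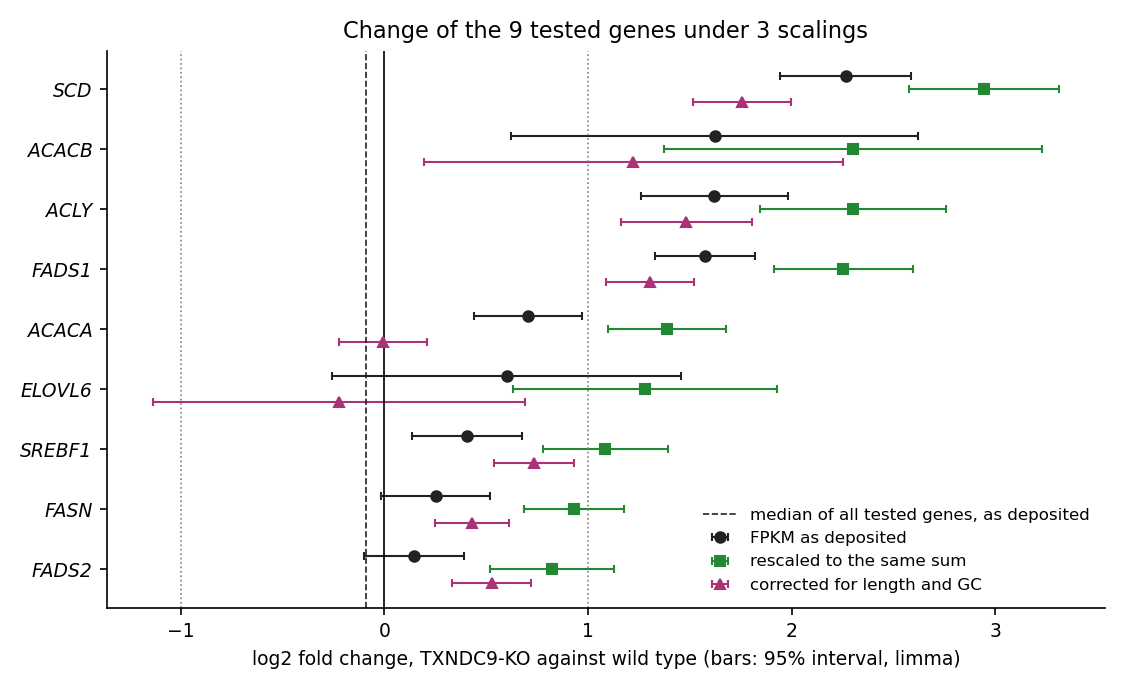
Log2 fold change of the 9 tested genes, TXNDC9-KO against wild type, with 95% intervals from limma, as deposited (circles), after rescaling each library to the same sum (squares) and after correction for transcript length and GC content (triangles). Dotted lines mark a 2-fold change and the dashed line the median of all tested genes (−0.09); SCD, ACLY and FADS1 lie beyond the 2-fold line under each scaling, whereas ACACA and ELOVL6 move to 0 or below after the correction.

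The scaling of the libraries mattered for the weaker members. Fold changes followed transcript features across all genes, rising with transcript length (Spearman rho 0.495) and falling with GC content (rho −0.462) over 13112 genes, which are not independent replicates. The members were long, with a median canonical transcript of 5073 nt against 2866.5 nt for the genes tested. After correction for length and GC content, SCD, ACLY and FADS1 were still called, with log2 fold changes of 1.76, 1.48 and 1.31, and these 3 of 9 stood against 6.41% of all genes called higher and 7.39% called lower. ACACA (10013 nt, 48.9% GC) went to −0.01, and ELOVL6 (6570 nt, 41.4% GC) to −0.22 with an interval from −1.14 to 0.69. The GC-rich members moved the other way: SREBF1 (63.2% GC) was 0.73, FADS2 (59.0% GC) 0.53 and FASN (65.3% GC) 0.43, with adjusted p-values of 0.0019, 0.00402 and 0.00631 (limma) at less than 2-fold. The FPKM of all genes summed to 805816 and 971102 in the WT libraries and to 535973 and 568279 in the KO libraries. The source of this difference was not tested. Rescaling each library to the same sum of FPKM thus raised KO values against WT values, and the median of all genes by 0.67. It brought 7 of the 9 members past the threshold, where 33.1% of all genes were called higher and 3.37% lower. Relative to the median of all genes, the deposited changes were 2.35 for SCD, 1.71 for ACLY and ACACB, 1.66 for FADS1, 0.80 for ACACA, 0.34 for FASN and 0.23 for FADS2. The calls also rested on both KO libraries. With KO replicate 1 or KO replicate 2 left out, the log2 fold changes of SCD, ACLY and FADS1 stayed between 1.53 and 2.28, but their adjusted p-values were 0.0237 or 0.0232 (limma) and no gene of the table was called.

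Ratios within a library, which no scaling of whole libraries can alter, showed how unequally the members changed. The SCD to FASN ratio was 0.796 and 0.660 in WT and 2.97 and 2.90 in KO libraries, a 4.04-fold difference. The ACLY to FASN ratio went from 0.433 and 0.325 to 0.949 and 0.993. The FADS1 to FADS2 ratio was near 1 in WT, at 1.09 and 1.01, and was 3.03 and 2.67 in KO libraries. The ACACA to FASN ratio differed less, at 0.147 and 0.151 against 0.195 and 0.215. In all of these pairs both KO ratios lay above both WT ratios. The correction for length and GC content acts on each gene and does move ratios. After it the log2 change was 1.33 instead of 2.02 for SCD to FASN, 1.05 instead of 1.37 for ACLY to FASN and 0.78 instead of 1.43 for FADS1 to FADS2, still without overlap, while ACACA to FASN turned from 0.46 to −0.44, with both KO ratios below both WT ratios. For SREBF1 to SREBF2 it was −0.02 instead of −0.31, and the groups overlapped. The smallest p an exact permutation could reach with these 4 libraries is 0.33, and the ratios were not tested.

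**Figure D3:**
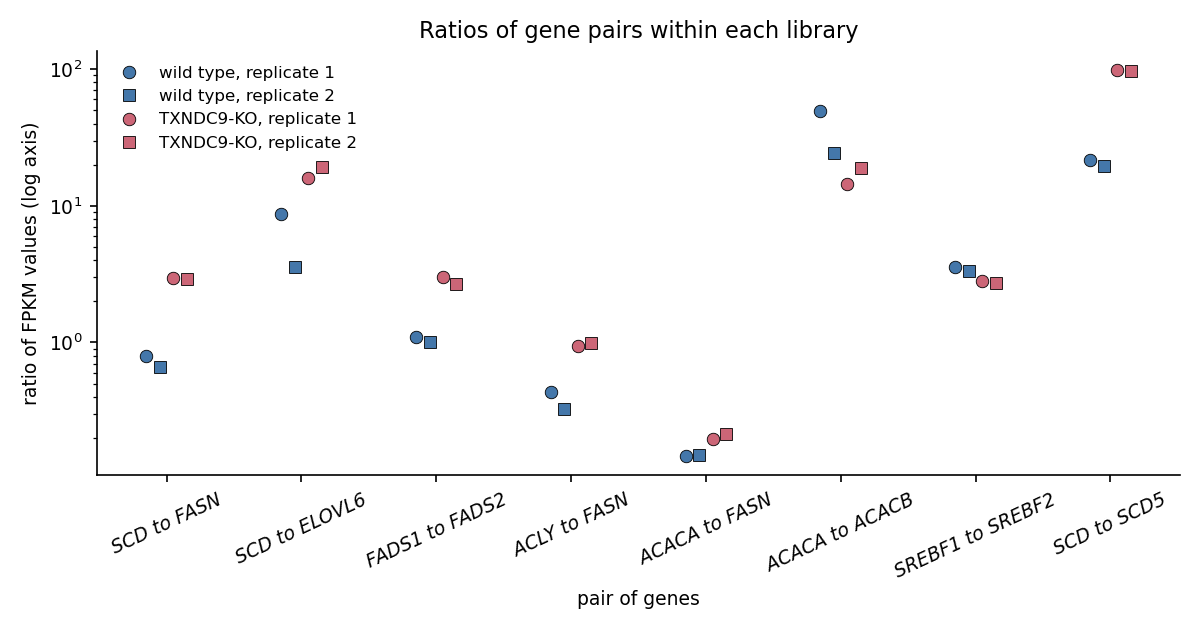
Ratio of the FPKM values of gene pairs (log axis) in each of the 4 libraries; each point is 1 library. The FADS1 to FADS2 ratio stands near 1 in WT and at 3.03 and 2.67 in KO libraries, while the SREBF1 to SREBF2 ratio is 2.84 and 2.71 in KO against 3.55 and 3.34 in WT, a difference lost after the length and GC correction.

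The promoters of SCD and ACLY are shown because these had the largest fold changes among the called members and both carry CCAAT boxes, and that of ACACB because it has none of the motifs and belongs to the lowest member tested. Each line gives the 250 bases before the gene start in RefSeq (GRCh38.p14), 5′ to 3′ on the gene's strand, with capitals on CCAAT boxes (CCAAT) and GC boxes (GGGCGG), searched on both strands. The windows are chr10:100346983-100347232 on the plus strand for SCD, chr17:41919023-41919272 on the minus strand for ACLY (within the longer GENCODE gene) and chr12:109116337-109116586 on the plus strand for ACACB.
SCD: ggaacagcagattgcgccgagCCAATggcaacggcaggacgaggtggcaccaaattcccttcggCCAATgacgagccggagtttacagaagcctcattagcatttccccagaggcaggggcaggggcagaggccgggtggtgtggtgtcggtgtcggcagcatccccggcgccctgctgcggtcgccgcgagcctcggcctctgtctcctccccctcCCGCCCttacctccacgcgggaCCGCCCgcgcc
ACLY: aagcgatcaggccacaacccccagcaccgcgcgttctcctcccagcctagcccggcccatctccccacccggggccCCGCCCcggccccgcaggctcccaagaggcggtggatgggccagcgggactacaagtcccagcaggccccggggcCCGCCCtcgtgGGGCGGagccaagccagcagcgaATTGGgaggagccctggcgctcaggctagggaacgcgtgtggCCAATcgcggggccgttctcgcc
ACACB: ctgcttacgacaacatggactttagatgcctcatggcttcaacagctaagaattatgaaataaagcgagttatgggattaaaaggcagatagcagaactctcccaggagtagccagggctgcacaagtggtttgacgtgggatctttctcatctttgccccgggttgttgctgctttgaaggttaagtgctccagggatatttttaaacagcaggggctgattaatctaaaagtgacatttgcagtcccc
Promoters of 9 members were found, those of all but FASN. For every gene only the first window in the source was searched, so other starts of a gene were not covered. CCAAT boxes, the sites of the NF-Y factor that acts beside SREBP, were found in 2 of the 9. These were SCD (229 and 186 bases before the start) and ACLY (65 and 23 bases before it), while 9021 of 27305 promoters held one. FADS1, which was also called higher (log2 fold change 1.57), had no CCAAT box, and its window is not printed. ACACB, with no CCAAT box either, was not called, but its log2 fold change was 1.62, as was that of ACLY. FADS2 (log2 fold change 0.15) likewise had none of the motifs, and its window is not printed. The printed windows were thus chosen by motif and fold change, and a link between CCAAT boxes and the changes was not tested. GC boxes, bound by SP1, were in 7 of the 9 and in 42.3% of all, with overlapping matches counted apart in ACACA. The E-box CACGTG, a site of helix-loop-helix factors, was in 0 of the 9 and in 6.49% of all. A sterol regulatory element written as TCACNCCAC was also in 0 of the 9 and in 0.875% of all. In the printed windows no match of one motif overlapped one of the other. The SCD and ACLY windows had 23 CpG dinucleotides each and 68.0% and 73.6% GC, and that of ACACB had 4 CpG and 45.2% GC.

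The genes around the pathway were read from the same fit by lists written from textbook roles. Of all tested genes, 14.2% were called higher and 15.3% lower, and 6.41% and 7.39% after the correction for length and GC content. A count near these shares is no result about its list, and the lists were not tested. In the list of SREBP processing, 2 of 8 tested genes were called higher and 0 lower (median log2 fold change 0.49). INSIG1, which retains SREBP in the endoplasmic reticulum and is itself an SREBP target, rose from 23.5 and 22.2 FPKM to 127 and 122 FPKM, a log2 fold change of 2.45. MBTPS2, the site-2 protease that releases SREBP, rose by 1.68 on the log2 scale. SCAP, the SREBP escort protein, had a log2 fold change of −0.01, and SREBF2, the sterol-directed relative of SREBF1, had 0.72. SREBF1 was above SREBF2 in every library, by 3.55 and 3.34 times in WT and 2.84 and 2.71 times in KO libraries.

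Among elongation and desaturation genes outside the 10, 2 of 11 tested were called higher and 1 lower, with a median of 0.01. ELOVL5, the elongase of polyunsaturated fatty acids that works between FADS2 and FADS1, rose from 65.2 and 54.9 FPKM to 127 and 129 FPKM (log2 fold change 1.10), and HACD2, a dehydratase of the elongation cycle, by 1.30. TECR, the last reductase of that cycle, fell from 310 and 405 FPKM to 134 and 144 FPKM (−1.35). After the correction for length and GC content none of these 3 was called, with log2 fold changes of 0.87, 0.74 and −0.42. SCD5, the other human stearoyl-CoA desaturase, was 5.09 and 4.86 FPKM in WT and 5.05 and 5.01 FPKM in KO libraries, and its groups overlapped. The SCD to SCD5 ratio was thus 21.5 and 19.6 in WT and 98.5 and 97.1 in KO libraries. HSD17B12, the reductase of the elongation cycle, had a log2 fold change of 0.41, and FADS3, the neighbour of FADS2, had −0.62, which became 0.06 after rescaling to the same sum.

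In the list of substrate and NADPH supply, 1 of 14 tested genes was called higher and 1 lower, with a median of −0.19. ACSS2, which makes cytosolic acetyl-CoA from acetate beside ACLY, rose from 7.71 and 9.96 FPKM to 18.5 and 18.9 FPKM (log2 fold change 1.09). PGLS, of the pentose phosphate pathway, fell by 1.65 on the log2 scale, and was not called after the correction (−0.65). The citrate carrier SLC25A1 (−0.25) changed sign to 0.43 after rescaling, and ME1, the cytosolic malic enzyme, had 0.57. Of 4 tested genes that activate the enzymes, HLCS, which attaches biotin to the carboxylases, was called higher (log2 fold change 1.04) and 0 were lower, with a median of 0.41, and HLCS was not called after the correction (0.22). AASDHPPT, which attaches the phosphopantetheine arm to FASN, had 0.70, and MID1IP1, which promotes ACACA polymerization, −0.36. THRSP, a relative of MID1IP1, was listed between 0 and 0.142 FPKM.

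**Figure D4:**
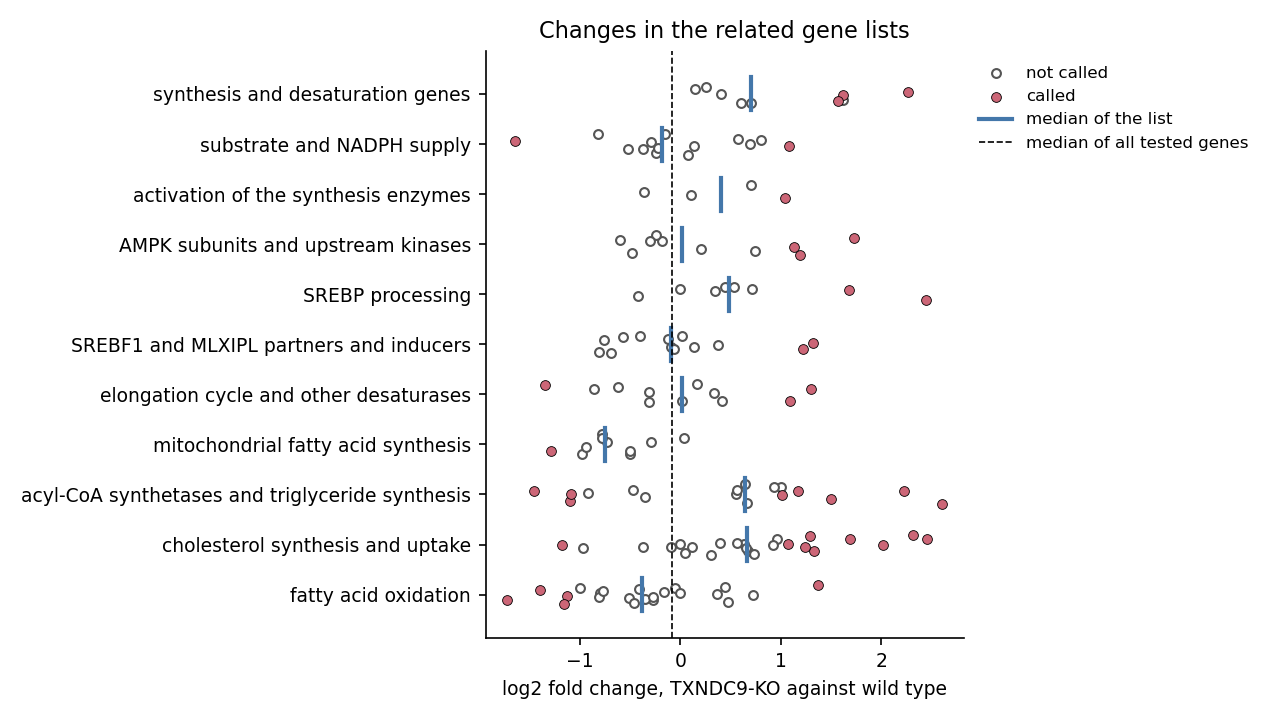
Log2 fold change (TXNDC9-KO against wild type) of each tested gene, by list; filled points were called, open points were not, blue bars are list medians and the dashed line is the median of all tested genes (−0.09). The 9 tested synthesis and desaturation genes lie to the right of 0, with a median of 0.71, as does most of the cholesterol list, whose median is 0.67.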

How the data were processed

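Polyadenylated RNA was sequenced in 2 WT and 2 TXNDC9-KO libraries. The authors mapped reads to hg38 with TopHat2, using only splice junctions of an Ensembl annotation, and estimated with Cuffdiff (Cufflinks) the deposited FPKM of each gene in each library. Versions, library normalization and strand use are not given in the sources used here. The deposited averages, fold changes and p- and q-values of Cuffdiff were not used. Identifiers stood 4 times each and out of register with the symbols, so rows were taken by symbol. Identifiers put back in order matched GENCODE 44 for all 10 members, and gave position, canonical transcript length and GC content.

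For genes with a mean above 1 FPKM, limma 3.58.1 (R 4.3.3) was run on log2(FPKM + 0.1) (trend in the prior variance, no replicate block, two-sided, Benjamini-Hochberg adjustment over 13246 genes). Fold changes on this scale understate those of low genes. Cuffdiff needs reads, so limma took its place, with the study's thresholds. Depth is unknown, and no detection floor is given. The members and lists were chosen with earlier results of these data known. Named were all members, up to 2 called genes per list and direction, and relatives of members, with some genes not reported here. The correction fitted a loess surface (span 0.3) on length and GC content to each library. limma was tested on simulated data. The deviations of same-numbered libraries correlated at −0.0904 over genes, and numbers were not taken to pair them. Promoters came from RefSeq. Python 3.11.15, pandas 2.3.3, numpy 2.4.6 and matplotlib 3.10.9 were used.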

Additional observations from a re-analysis of the deposited data

How the results depend on the processing

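An adjusted p under 0.05 only loosens the limit, and rescaling to the same sum (TPM) raised the median of all genes by 0.67. A call higher could hardly be lost under these settings. The call of SCD, ACLY and FADS1 held under both. It also held with a pseudocount of 1 or 0.01, and with no filter or a mean above 5 FPKM. It held after centring on the median or correction for length and GC content, without a trend and with the replicate block. It was lost with either KO replicate left out, where limma called 0 genes in the table (7129 and 7307 genes had an unadjusted p under 0.05), because no adjusted p was under 0.0160 and 0.0232. The single library left in a group was assumed to vary like the other group. Leaving out each library in turn gave 0 to 5 members called higher, 0 called lower, 0 to 2136 genes called higher and 0 to 2633 called lower, against 3, 0, 1885 and 2021 with all libraries.

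Rescaling to TPM gave 7 members called higher, and 4380 genes called higher and 447 lower, so that 90.7% of calls were higher against 48.3% as deposited. A mean above 5 FPKM left 9593 genes to test, instead of 13246, and 1220 of them were called higher. The length and GC correction gave 841 genes called higher and 969 lower, and 841 and 975 with the replicate block. The block alone, for libraries whose numbers did not pair them (correlation −0.0904), gave 4 members called higher (ACACB was added), 1960 genes higher and 2146 lower.

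Of 45 genes named by the rule, which leaves out the cell type markers, 35 kept their sign under every setting run. After the correction, with or without the replicate block, ACACA was −0.0061, ELOVL6 −0.22, SCD5 −0.044, FADS3 0.27, MLX 0.045, MLXIP −0.20, SCAP 0.32 and SLC25A1 0.77. After rescaling to TPM, TXNDC9 was 0.12, FADS3 0.057, MLX 0.56, SCAP 0.67, MID1IP1 0.32 and SLC25A1 0.43. Centring gave SCD5 −0.13 and MLXIP −0.13. With each library left out in turn, SCD5 ranged from −0.019 to 0.049, MLXIP from −0.062 to 0.089 and SCAP from −0.084 to 0.068. The cause was not tested. Summing repeated lines was not run, since no member stood on more than 1 line. Depth, and so the precision of low genes such as ACACB and MLXIPL, is unknown.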

Other observations

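Genes that use or compete for the products of the pathway were read from the same fit. Their counts stand against 14.2% of all tested genes called higher and 15.3% lower, or 6.41% and 7.39% after the correction. A count near these shares is no result about its list. In the list of acyl-CoA synthetases and triglyceride synthesis, 5 of 17 tested genes were called higher and 3 lower (median log2 fold change 0.65). After the correction 2 of the 17, LPIN1 and LPIN2, were called higher and 0 lower, and the median was 0.20. LPIN1 and LPIN2, the phosphatidate phosphatases that yield diacylglycerol, rose from 4.47 and 3.61 FPKM to 24.8 and 25.2 FPKM and from 3.74 and 2.85 FPKM to 15.9 and 15.4 FPKM. PNPLA2, the triglyceride lipase, and AGPAT2, an acyltransferase, fell by 1.45 and 1.10 on the log2 scale, but were not called after the correction for length and GC content (−0.63 and −0.05). In the list of cholesterol synthesis and uptake, 8 of 24 tested genes were called higher and 1 lower (median 0.67), and 9 were higher and 0 lower after the correction. STARD4, a sterol carrier, rose from 5.47 and 5.37 FPKM to 29.9 and 30.3 FPKM, whereas PMVK of the mevalonate pathway fell by 1.18 on the log2 scale (−0.29 and not called after the correction).

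Of 10 tested genes for AMPK, the kinase that inhibits ACACA and ACACB, and its upstream kinases, 3 were called higher and 0 lower (median 0.01). PRKAA1 and PRKAA2, its catalytic subunits, rose by log2 fold changes of 1.73 and 1.19, which were 0.91 and 0.01, and not called, after the correction. Among 13 tested partners and inducers of SREBF1 and MLXIPL, 2 were called higher and 0 lower (median −0.09). These were SP1 (log2 fold change 1.32) and NFYA (1.23), which were 0.52 and 0.60 after the correction, and not called. MLX and MLXIP, the partner and the relative of MLXIPL, had −0.12 and 0.01. In mitochondrial fatty acid synthesis, 1 of 10 tested genes was called lower, LIPT2 (−1.29), and 0 higher (median −0.75), but LIPT2 passed the filter only through its WT values (2.03 and 2.09 FPKM against 0.806 and 0.760 FPKM). It was not called after the correction (−1.13), and the list had 0 calls with a pseudocount of 1, with no filter, with a mean above 5 FPKM or after rescaling. Centring on the median went the other way, with 3 genes of the list called lower. In fatty acid oxidation, 4 of 22 tested genes were called lower and 1 higher, against 15.3% and 14.2% of all tested genes. The median was −0.38, and 0.29 after rescaling to the same sum. After the correction 3 of the 22 were called lower and 0 higher (median −0.15), against 7.39% and 6.41% of all genes. ACADVL, the very long chain acyl-CoA dehydrogenase, fell from 738 and 888 FPKM to 240.3 and 249.8 FPKM, and ETFB, of the electron carrier that accepts its electrons, by 1.40 on the log2 scale. ACADVL was still called lower after the correction (−1.16) and after rescaling (−1.04). PPARA, the regulator of the oxidation genes, rose from 2.03 and 2.05 FPKM to 5.38 and 5.51 FPKM, and was not called after the correction (0.61), nor was ETFB (−0.47).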
